A study of Mus musculus with 6 samples.

Results

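The apolipoprotein L genes were followed in colon RNA of STAT6-/- and wild-type (WT) BALB/c mice given dextran sulfate sodium (DSS), which damages the lining of the gut. STAT6 carries the signals of interleukin-4 and interleukin-13 to the nucleus. Members were chosen by symbol, as every gene named Apol followed by a number, and the family was picked for description with its STAT6-/- against WT values already known, so the fold changes and calls of its members are given as a description, with no p-value, and support nothing. The rule found 13 genes among 19949 with counts: Apol6, Apol7a, Apol7b, Apol7c, Apol7d, Apol7e, Apol8, Apol9a, Apol9b, Apol10a, Apol10b, Apol11a and Apol11b. Of these, 7 passed the filter on low counts, as did 15066 genes in all. Each genotype had 3 libraries from mice aged 6 to 8 weeks that drank 3% DSS for 3 days, so both groups carried the injury, and mice without DSS are not analysed here. The labels give neither the design of the Stat6 allele nor whether the libraries are separate animals, so the spread between libraries may be partly technical. The tissue is labelled colon, although the protocol speaks of the proximal part of the intestine.

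Apolipoprotein L proteins are intracellular or secreted proteins that bind lipids and act on membranes, and despite their name most are not carriers of blood lipid. Human APOL1 lyses trypanosomes, and human APOL3 lyses bacteria that reach the cytosol. In rodents the family has expanded into a cluster of related genes, several of which are induced by interferons. Apol9a and Apol9b bind phosphatidylethanolamine and are known as interferon-induced genes, and Apol7c has been described in dendritic cells, where it acts on phagosomes. Interferons signal through receptor-bound Janus kinases to a complex that holds STAT2 and IRF9 and binds the interferon-stimulated response element (ISRE) in the promoters of target genes.

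The libraries held 17122315 to 19555450 expected counts. Levels are given as CPM, which are counts scaled by the size of each library. Stat6 stood at 47.2 ± 7.74 CPM (mean ± SD, n = 3) in the STAT6-/- colons and 94.8 ± 8.11 in WT, with an edgeR adjusted p of 0.0134 (0.0725 without WT replicate 2 and 0.0721 without WT replicate 3). Xist, made only from an inactive X chromosome, stood at 0.683 ± 0.376 CPM in STAT6-/- and 469 ± 103 in WT, and the Y-linked Ddx3y at 55.1 ± 4.33 and 0.08 ± 0.04. Genotype and sex therefore cannot be told apart in any comparison here. STAT6-/- replicate 2 stood apart from the other STAT6-/- libraries: on the first principal component, with 65.2% of the variance, it lay at -17 while the others lay at -65.3 and -54.1 and the WT libraries between 37.9 and 51.9. All 12 markers of colon epithelium were detected, with a summed level of 26823 to 41134 CPM in STAT6-/- and 32289 to 43567 in WT. Within that list Krt20 (2.79-fold) and Vil1 (2.29-fold) rose and Car1, a carbonic anhydrase, fell by 3.40 on the log2 scale (edgeR adjusted p = 0.026, 0.02 and 0.00732), while the other 9 were not called. Of the small intestine markers 2 of 7 passed the filter and 0 were called, with a summed level of 29.3 to 69.3 CPM in STAT6-/- and 12.1 to 15 in WT.

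Summed over its 13 genes, the family was far more abundant in the STAT6-/- colons. The summed level was 400, 180 and 302 CPM in STAT6-/- replicates 1 to 3 and 23.7, 38.7 and 26.6 CPM in WT replicates 1 to 3. The lowest STAT6-/- library, replicate 2, was still 4.66-fold above the highest WT library, and the ratio of the group means, 294 ± 110 to 29.7 ± 7.92 CPM (SD, n = 3), was 9.92. Of the 7 members that passed the filter, 4 were called higher in STAT6-/- (Apol6, Apol7a, Apol9a and Apol9b) and 0 lower at an edgeR adjusted p below 0.05. Among all 15066 tested genes, 11.4% were called higher and 11.5% lower. For the same 4 members every STAT6-/- library lay above every WT library, which held for 22% of all tested genes. The median log2 fold change (STAT6-/- minus WT) was 2.04 over the 7 tested members and 0.01 over all tested genes. These counts describe members picked with this contrast in view. Without WT replicate 2 only Apol7a was called, and without WT replicate 3 no member was. In those edgeR fits 5 and 4 of the 8 tested members were higher at an unadjusted p below 0.05. So were 2219 of 15497 and 2115 of 15395 genes over the whole table, and the member counts come from the contrast that picked the family. The fits called 21 and 12 genes higher over the whole table, against 1718 with all libraries.

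**Figure D1:**
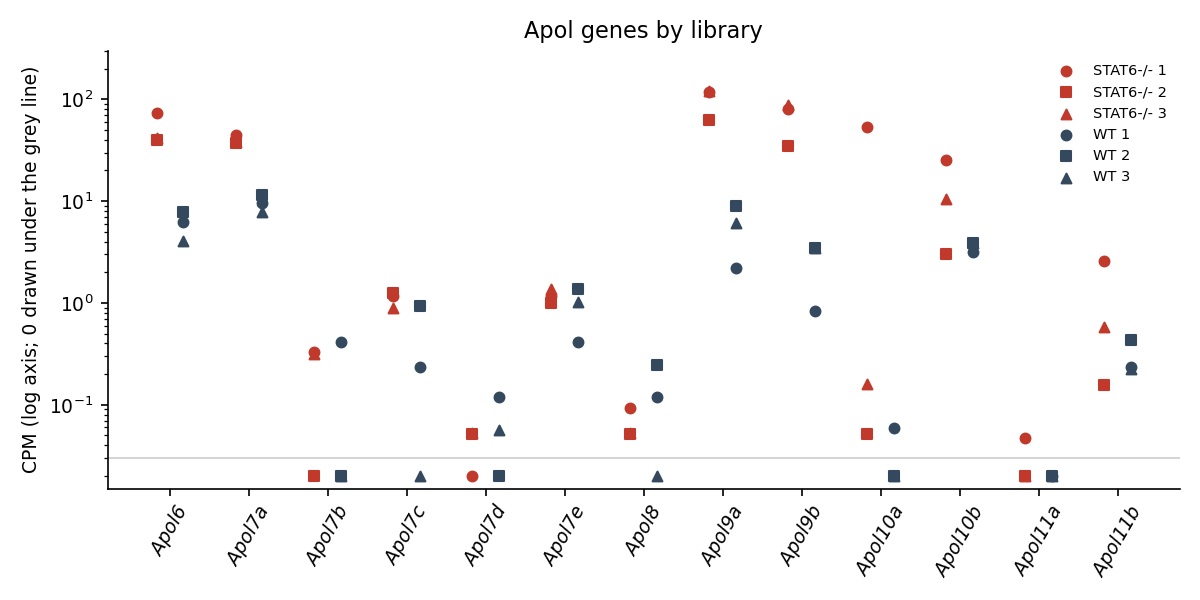
Level of each of the 13 Apol genes in CPM on a log axis, with 1 point per library; red points are STAT6-/-, dark points WT, and a level of 0 is drawn under the grey line. The red points lie above all dark points for Apol6, Apol7a, Apol9a and Apol9b, whereas Apol10a is high in STAT6-/- replicate 1 alone, at 53.3 CPM.

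Apol9a and Apol9b, the interferon-induced lipid-binding pair, showed the highest levels in the STAT6-/- colons. Apol9a (chromosome 15, 77403789 to 77411080, mm10) stood at 117, 62.4 and 121 CPM in STAT6-/- and 2.19, 8.93 and 6.13 CPM in WT. The means were 100 ± 32.8 and 5.75 ± 3.39 CPM (SD, n = 3), a log2 fold change of 4.12 ± 0.53 (SE). Apol9b (77729047 to 77736382 on the same chromosome) stood at 80.8, 34.9 and 87.4 CPM in STAT6-/- and 0.828, 3.47 and 3.46 CPM in WT. Its means were 67.7 ± 28.6 and 2.59 ± 1.52 CPM, a log2 fold change of 4.71 ± 0.60. In both genes STAT6-/- replicate 2 was the lowest of its group and WT replicate 1 the lowest of all libraries, with no overlap between the groups.

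The division of reads between this pair is uncertain. Of the 50-base windows in Apol9a transcripts, 55.8% also occur in Apol9b, and 54.4% of those in Apol9b occur in Apol9a. In the deposited counts Apol9a exceeded Apol9b by a ratio of 1.45, 1.79 and 1.39 in the STAT6-/- libraries, and of 2.72, 2.57 and 1.79 in the WT libraries. Summed, which does not depend on that division, the pair stood at 198, 97.3 and 209 CPM in STAT6-/- and 3.02, 12.4 and 9.59 CPM in WT, a 20.1-fold ratio of the means. Between the transcripts of Apol9a the same one was the more abundant in 5 of the 6 libraries, with 84% to 87.3% of the gene's count in STAT6-/-; in WT replicate 1, where the gene had 37.3 counts, it held 45.5%.

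Promoter stretches of the pair and of its relatives are shown because most hold a match to the ISRE, the element described above. In the RefSeq table (GRCm38.p6, the assembly of mm10) 11 Apol genes have a window of 250 bases before to 50 bases after the start. Apol6 and Apol7d do not, while Apol9a and Apol9b have more than a single window each. The ISRE core was searched on both strands as GAAA, then 2 bases of any kind, then GAAA, which reads as TTTC, 2 bases and TTTC on the other strand. It occurred in a window of 8 of the 11 genes: Apol7c, Apol7e, Apol9a, Apol9b, Apol10a, Apol10b, Apol11a and Apol11b. Over all 32851 windows in the table it occurred in 1131, or 3.44%, a share counted per window and not per gene. The 8 genes are not independent cases, since several of their windows are near copies. Those of Apol7c and Apol7e were 90.6% identical over their aligned bases, those of Apol11a and Apol11b 99.3% and those of Apol10a and Apol11b 89.6%. All matches lay on the strand opposite the gene. Stretches around the match follow, written 5′ to 3′ on the gene's strand, with the matched letters in capitals.
Apol9a: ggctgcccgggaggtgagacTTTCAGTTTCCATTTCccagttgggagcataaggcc
Apol9b: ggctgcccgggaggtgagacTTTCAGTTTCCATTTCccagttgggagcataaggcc
Apol7c: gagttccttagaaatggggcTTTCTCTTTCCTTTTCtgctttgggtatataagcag
Apol7e: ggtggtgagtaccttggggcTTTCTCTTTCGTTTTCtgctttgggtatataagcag
Apol7b: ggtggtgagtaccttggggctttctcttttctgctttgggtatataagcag
Apol10a: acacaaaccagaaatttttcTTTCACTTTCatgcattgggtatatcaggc
Apol10b: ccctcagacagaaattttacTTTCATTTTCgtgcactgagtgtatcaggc
Apol11b: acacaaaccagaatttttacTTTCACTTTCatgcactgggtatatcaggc
The stretches lie at chr15:77411104-77411159 for Apol9a (minus strand), chr15:77729015-77729070 for Apol9b (plus), chr15:77533335-77533390 for Apol7c (minus) and chr15:77698833-77698888 for Apol7e (plus). Those of the other genes lie at chr15:77447461-77447511 for Apol7b (minus), chr15:77476976-77477025 for Apol10a (plus), chr15:77596100-77596149 for Apol10b (minus) and chr15:77643307-77643356 for Apol11b (minus).

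The Apol9a and Apol9b windows compared here were identical over 278 aligned bases, and both hold 2 matches that share 4 letters, in the run of capitals. Apol7c and Apol7e also hold 2 overlapping matches. The Apol7b window was 99.3% identical to that of Apol7e yet holds no match: between the same flanks its stretch has 51 bases and that of Apol7e 56. The windows of Apol7a and Apol8 hold no match either. Among members without a match Apol7a stood at 39.7 ± 4 CPM in STAT6-/- (SD, n = 3), while Apol7b and Apol8 did not exceed 0.414 and 0.248 CPM in any library. Among those with a match the STAT6-/- mean ranged from 0.0156 CPM (Apol11a) to 100 CPM (Apol9a), and Apol7e stayed at or below 1.38 CPM in every library. Across all tested genes with a window, 18.5% of the 464 with the ISRE core were called higher and 11.2% of the 11388 without it. The gamma-activated site TTCNNNGAA, which reads the same on both strands, occurred in 3 of the 11 Apol genes with a window (Apol10a, Apol11a and Apol11b). It occurred in 8.3% of all windows. TTC and GAA at the wider spacing that STAT6 prefers, with 4 bases between, occurred in 1 of the 11 (Apol7c) and in 6.95% of all windows. These are matches of letters, and no binding was measured.

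Apol6 and Apol7a were the other members called higher. Apol6, whose human relative is known to promote cell death when overexpressed, stood at 73.6, 40.3 and 41.7 CPM in STAT6-/- and 6.27, 7.76 and 4.08 CPM in WT. The means were 51.9 ± 18.9 and 6.04 ± 1.85 CPM (SD, n = 3), an 8.6-fold difference and a log2 fold change of 3.10 ± 0.35 (SE). The Apol6 gene (77045050 to 77057108) overlaps Mb, the myoglobin gene, which did not exceed 0.473 CPM in any library. Apol7a (77388217 to 77399110) stood at 44.3, 37.1 and 37.8 CPM in STAT6-/- and 9.64, 11.6 and 7.77 CPM in WT, a 4.11-fold difference and a log2 fold change of 2.04 ± 0.20. It was the most even member across the STAT6-/- libraries, and its lowest STAT6-/- library lay 3.2-fold above its highest WT library. No 50-base window of Apol6 occurs in another member, and 14.2% of those of Apol7a do.

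Apol10a and Apol10b set STAT6-/- replicate 1 apart from every other library. Apol10a (77476953 to 77491069) had 1142 expected counts there, or 53.3 CPM, and at most 3.49 counts in each of the other 5 libraries. The filter on low counts therefore left it untested, and its level describes 1 library. Apol10b (77584154 to 77598542) stood at 25.5, 3.03 and 10.5 CPM in STAT6-/- and 3.19, 3.91 and 3.86 CPM in WT. The groups overlapped, since STAT6-/- replicate 2 lay below all 3 WT libraries. The log2 fold change of 1.83 ± 0.69 (SE) was 0.91 without STAT6-/- replicate 1 and 2.33 without STAT6-/- replicate 2. DESeq2, and edgeR without STAT6-/- replicate 2, called this gene higher as well. Apol11b (77633951 to 77643286) had its highest value in the same library, with 2.61 CPM in STAT6-/- replicate 1 and 0.157 to 0.582 CPM in the other 5. Apol11a (77508129 to 77517874) had 1.06 counts in STAT6-/- replicate 1 and 0 elsewhere.

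The remaining members were near the limit of detection. Apol7c (77524852 to 77533335) stood at 1.17, 1.25 and 0.899 CPM in STAT6-/- and 0.237, 0.931 and 0 CPM in WT. Its log2 fold change of 1.51 ± 0.93 (SE) ranged from 0.91 without WT replicate 3 to 3.17 without WT replicate 2, and was 0.41 with limma on log2 (FPKM + 1). Apol7e (77695706 to 77719288) stood at 1.17, 0.992 and 1.38 CPM in STAT6-/- and 0.414, 1.36 and 1.02 CPM in WT, which overlap. Its near-identical relative Apol7b (77422209 to 77447460) had at most 6.85 counts in a library, and 74% of the 50-base windows of Apol7e occur in Apol7b, so their counts may be split between them. Apol8 (77745109 to 77757062) had 0 to 4 counts in each library. Apol7d, a long noncoding RNA that lies on chromosome 1 (71653335 to 71662843) and not in the cluster, had 0 to 2. A count of 0 allows up to 3 counts, or 0.153 to 0.175 CPM before scaling, and covers counting error only.

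**Figure D2:**
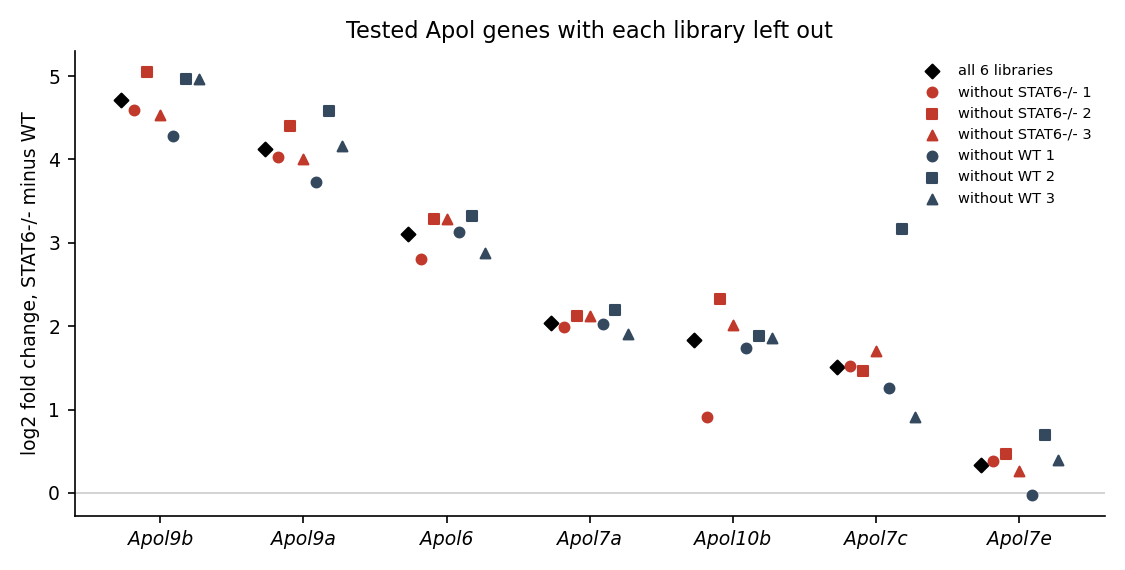
Log2 fold change (STAT6-/- minus WT) of the 7 tested Apol genes with all 6 libraries (black diamonds) and with each library left out (red for STAT6-/-, dark for WT). Apol9b, Apol9a, Apol6 and Apol7a stay between 1.90 and 5.05, whereas Apol10b falls to 0.91 without STAT6-/- replicate 1 and Apol7c moves between 0.91 and 3.17.

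Levels of different genes were compared per length, as FPKM. In the STAT6-/- colons the order of the mean FPKM was Apol9a (69.6 ± 24.1, SD, n = 3), Apol9b (46 ± 19.9), Apol6 (23.4 ± 10.3) and Apol7a (17.5 ± 2.9). The same order held within each STAT6-/- library. In WT the order was Apol7a (4.04 ± 0.591), Apol9a (3.76 ± 2.11), Apol6 (2.53 ± 0.646), Apol10b (1.78 ± 0.206) and Apol9b (1.66 ± 0.98). This order of the WT means did not hold within any single WT library. Apol9a was below Apol6 in WT replicate 1 (1.45 against 2.67). It was above Apol7a in WT replicate 2 (5.58 against 4.61) and WT replicate 3 (4.26 against 3.43). Apol10b was above Apol6 in WT replicate 3 (1.98 against 1.83). The summed FPKM of the family was divided differently in the 2 groups. Apol9a and Apol9b held 36.6% and 24.7%, 41.7% and 22.8%, and 45.3% and 31.9% of it in STAT6-/- replicates 1 to 3. In WT replicates 1 to 3 they held 13.1% and 4.8%, 30.1% and 11.5%, and 29.5% and 16%. Apol7a held 8.76%, 15.7% and 8.95% of it in STAT6-/- and 36.8%, 24.9% and 23.8% in WT.

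**Figure D3:**
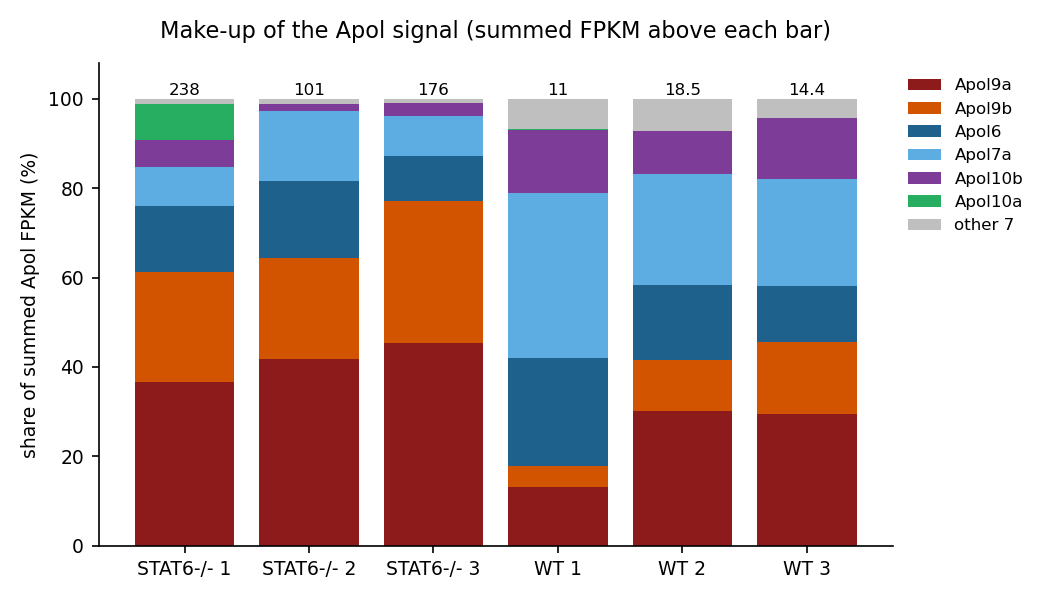
Share of each Apol gene in the family's summed FPKM, in percent, with 1 bar per library and the summed FPKM above each bar. The dark red and orange parts, Apol9a and Apol9b, are larger in the 3 STAT6-/- bars, and the green part, Apol10a, is visible in STAT6-/- replicate 1 alone (8.04%).

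Position was not used in choosing the members. Apart from Apol7d, the Apol genes lie within 77045050 to 77757062 of chromosome 15, and of the other genes that lie among them Rbfox2, a splicing factor, was the only one tested. Rbfox2 stood at 42 ± 13.4 CPM in STAT6-/- and 43.3 ± 2.32 in WT, the log2 fold change being -0.04 ± 0.23 (edgeR adjusted p = 0.902). Over all tested genes 11.4% rose and 11.5% fell. Within 500 kb on either side of the Apol genes and between them, 29 genes outside the family were tested. Of these 5 rose and 1 fell, with a median log2 fold change of -0.09. The 5 were Cpsf1, Slc39a4, Myh9, Eif3d and Ncf4. Myh9, the nonmuscle myosin heavy chain gene next to Apol8, rose by 0.89 ± 0.23 (adjusted p = 0.0345), and Ncf4, a subunit of the phagocyte NADPH oxidase, by 2.07 (adjusted p = 0.0253). Without WT replicate 2 or WT replicate 3, edgeR called 0 of the 29 in either direction, with 5 higher and 2 lower at an unadjusted p below 0.05 in both fits. Over all 15497 and 15395 genes tested in them, 2219 and 2115 were higher and 2151 and 2170 lower at that unadjusted p.

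**Figure D4:**
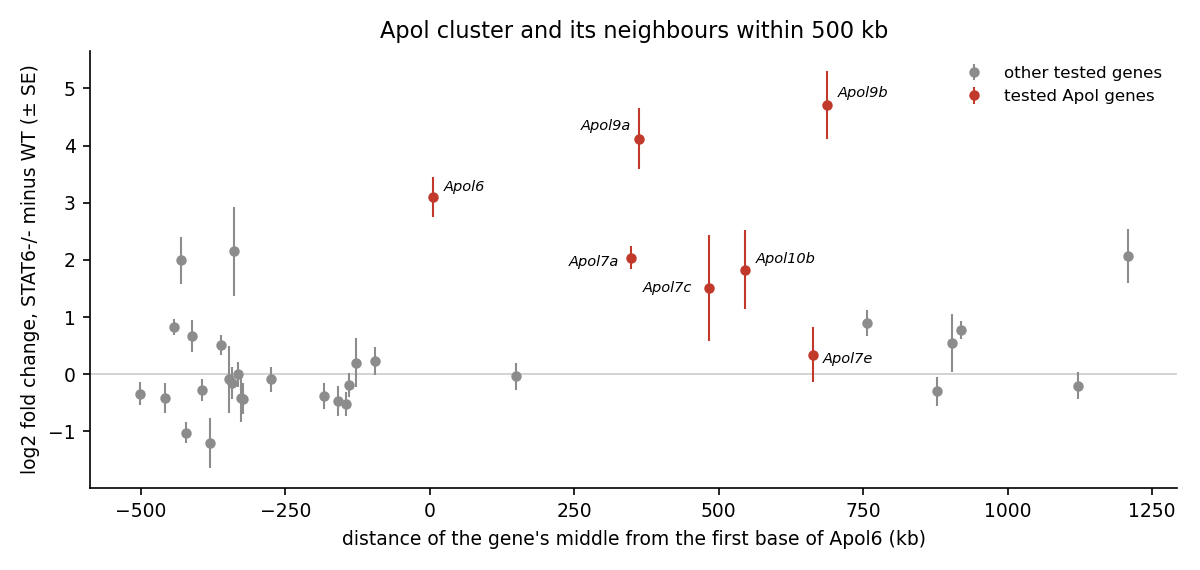
Log2 fold change (STAT6-/- minus WT, with its SE) of tested genes against distance in kb from the first base of Apol6; red points are Apol genes and grey points the 29 tested neighbours. Rbfox2, the grey point between Apol6 and Apol7a, lies at -0.04.

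The interferon pathway, which the best known Apol genes answer to, was described by role from a list of 57 genes. The list was written with earlier results of these data known, so its counts and p-values are a description. Of the 57 genes, 50 were tested: 33 rose and 1 fell, with a median log2 fold change of 1.92. Over all tested genes 11.4% rose and 11.5% fell. Among ligands 0 of 7 passed the filter. Ifng, the ligand of the type II receptor, stood at 2.89, 0 and 0.899 CPM in STAT6-/- and at 0 in all 3 WT libraries. Of 6 receptor genes 0 were called by edgeR, also at an unadjusted p below 0.05. Ifngr1 stood at 371 ± 56.4 CPM in STAT6-/- and 429 ± 16.5 in WT (n = 3; edgeR adjusted p = 0.413). Of 10 signal transducers 6 rose. Stat2, the partner of IRF9 in the ISRE-binding complex, rose to 254 ± 58.4 CPM from 38.4 ± 8.46 (edgeR adjusted p = 0.00732), and Irf9 to 102 ± 8.18 from 45.2 ± 11.4 (adjusted p = 0.0153). Of 30 target genes 25 rose and 0 fell, with a median log2 fold change of 2.59. Those with the smallest p were Zbp1, a sensor of nucleic acids (5.93-fold), Ifi44 (30.6-fold), Oas3, a sensor of double-stranded RNA (21.2-fold), and Psmb8, an immunoproteasome subunit (3.94-fold), with adjusted p of 0.00965 for the first 3 and 0.00969 for Psmb8. Of 5 feedback inhibitors Socs3, Usp18 and Socs1 rose and Pias1 fell (by 0.60 ± 0.14, adjusted p = 0.0259). Without WT replicate 2 the number of pathway genes that rose was 4 and without WT replicate 3 it was 0, with 39 and 34 higher at an unadjusted p below 0.05. Over all genes tested in those fits, 2219 of 15497 and 2115 of 15395 were higher at that unadjusted p.

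Markers of immune and endothelial cells were summed in each library beside the family, and the counts that rose stand against 11.4% of all tested genes. In bulk tissue, fewer cells of a type and less RNA per cell cannot be told apart. The summed level of 8 dendritic cell markers, of which 4 rose, was 75, 13.9 and 54.5 CPM in STAT6-/- and 11.4, 13.4 and 12.9 CPM in WT. The sum of 7 macrophage markers, of which 1 rose, was 1459, 534 and 1148 CPM in STAT6-/- and 405, 611 and 614 CPM in WT. For T and NK cells 2 of 6 tested markers rose, with sums of 70.9, 13.8 and 43.2 against 11.8, 12.8 and 9.7 CPM. In STAT6-/- replicate 2 the dendritic, macrophage and T and NK sums were 1.04, 0.87 and 1.08 times the highest WT library, and its Apol sum 4.66 times. The most abundant markers weigh most in a sum, and single markers could differ from it. Among macrophage markers, Lyz2 stood at 143 CPM in that library and 180 to 363 CPM in WT. Cd14 stood at 236 CPM there and 42.4 to 73 CPM in WT. Markers of endothelium, of which 2 of 5 rose, were 1.43 times the highest WT library in STAT6-/- replicate 2. B cell markers, 0 of 4 of which were called, summed to 255 CPM in STAT6-/- replicate 1, the library that held Apol10a, and to 22.4 to 43.9 CPM in the other 5. Sums for muscle were 1559 to 3598 CPM in STAT6-/- and 5204 to 6607 in WT, and for adipocytes 0.627 to 13.3 and 36.7 to 300. The part of these differences in tissue make-up in the Apol levels was not tested.

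**Figure D5:**
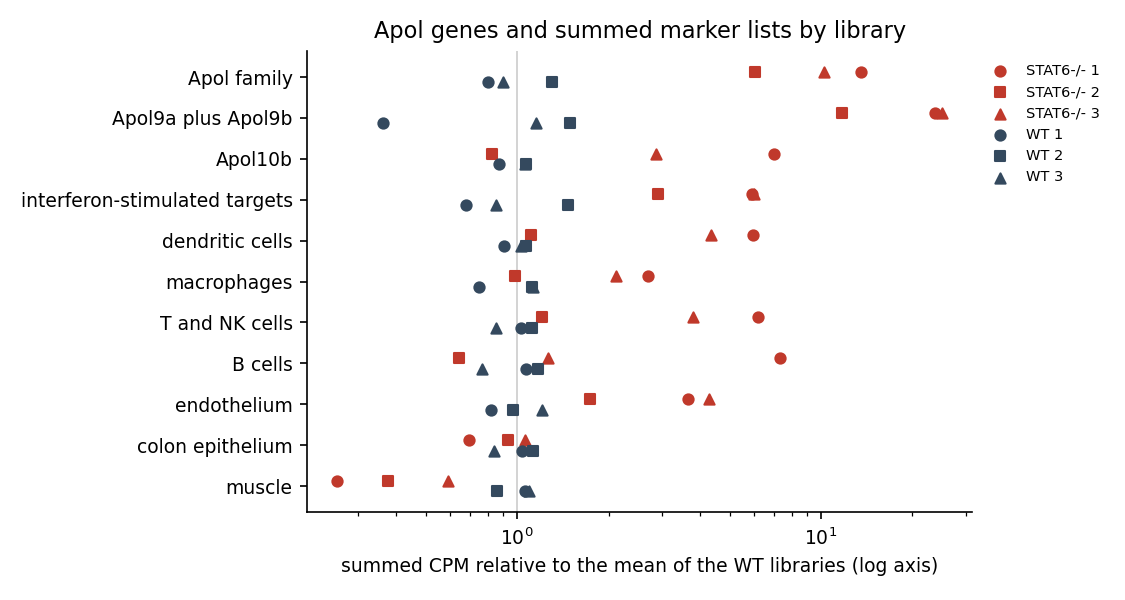
Summed CPM of Apol genes and of marker lists in each library, relative to the mean of the 3 WT libraries, on a log axis. STAT6-/- replicate 2 (red squares) lies near 1 for dendritic cells (1.11), macrophages (0.983) and Apol10b (0.829), and at 6.08 for the Apol family. Single markers within a list can differ from its sum.

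Of the tested members, 6 of 7 had their lowest STAT6-/- value in replicate 2, the STAT6-/- library nearest to WT on the first principal component. For Apol7a (37.1 against 37.8 CPM in replicate 3) and Apol6 (40.3 against 41.7) the margin was small. The share of all genes with this order was not counted, so it is not shown to be a trait of the family. Genes most like the family were ranked by Pearson r between log2 CPM values over the 6 libraries, as a description: the libraries form 2 groups, and any gene that differs between them scores high. Outside the family the 5 with the highest r to the summed family were Clip2 (0.9981), Stat2 (0.9966), Tmem104 (0.9964), H2-Q9 (0.9957) and Il18bp (0.9956). For Apol9a they were Dhx58, Oas3 and Triobp, and for Apol9b Oas2, Sp140 and Adar, of which Dhx58, Oas3, Oas2 and Adar are genes of the response to double-stranded RNA. For Apol6 they were Ranbp3, Zc3h18 and Ido1. For Apol7a they were Klhl5, Zc3h18 and H2-Eb1, an MHC class II chain at 442, 354 and 343 CPM in STAT6-/- and 66.4, 75.2 and 56.1 in WT. For Apol10a they were Niban3, Mcpt1 and H2-Eb2, each with its highest value in STAT6-/- replicate 1. Among the 7 members with a mean of at least 1 CPM, r was highest between Apol9a and Apol9b. It was 0.99 between Apol6 and Apol7a, and 0.95 to 0.97 between either of these and Apol9a or Apol9b. Apol10a and Apol10b had an r of 0.88 with each other, and the lowest r was 0.17, between Apol7e and Apol10a.

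Genes that share the apolipoprotein name but not the family, here called other apolipoproteins, were mostly of low level. Of 18 such genes 8 were tested, of which edgeR called 0 higher (1 at an unadjusted p below 0.05) and 2 lower, while DESeq2 called 1 higher. The gene higher at an unadjusted edgeR p below 0.05 was Apobr, a receptor and not itself an apolipoprotein (2.97-fold, edgeR adjusted p = 0.0513). Over all tested genes edgeR called 11.4% higher and 11.5% lower. Apoe, the most abundant and a carrier of lipid made by macrophages among others, stood at 458 ± 203 CPM in STAT6-/- and 270 ± 29.9 in WT (n = 3; edgeR adjusted p = 0.158). Apoc1, a component of lipoproteins, fell by 2.88 ± 0.56 on the log2 scale (adjusted p = 0.0182), and Apool, a subunit of the mitochondrial MICOS complex, by 0.96 ± 0.17 (adjusted p = 0.0157); neither was called without WT replicate 2 or WT replicate 3. Apold1, an endothelial gene with an apolipoprotein L domain, stood at 2.62 ± 1.52 CPM in STAT6-/- and 5.05 ± 1.04 in WT (n = 3), a log2 fold change of -0.95 ± 0.48 (edgeR adjusted p = 0.18). Its 3 STAT6-/- values all lay below the WT values, the reverse of the order in Apol6, Apol7a, Apol9a and Apol9b.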

How the data were processed

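Colon RNA was sequenced from 3 STAT6-/- and 3 WT libraries. The expected counts deposited by the authors are estimated reads per transcript without normalization, and their FPKM values are scaled to transcript length and library, per the file headers. The submitters' processing notes name RSEM 1.2.12, Bowtie2 2.2.5 and build mm10; how strand was treated is not given in the sources used here.

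Counts were summed per gene (27986 of 28238 transcripts named by the RefSeq table, 149 by GENCODE M21, 103 unmatched with 0.167% of counts) and rounded. The 2 genotypes were tested in edgeR 4.0.16 (R 4.3.3, quasi-likelihood F test, TMM, filterByExpr), with Benjamini-Hochberg adjustment over 15066 genes; "rose" and "fell" mean an adjusted p below 0.05. Except for raw counts and FPKM, levels are CPM on the TMM scale. The script was tested on simulated data. An exact two-sided permutation test of Stat6 gave p = 0.1, the smallest that 3 against 3 allow.

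The members and gene lists were chosen with earlier results of these data known. The genes that could be named were all Apol genes, tested neighbours, up to 4 genes of each list with the smallest p and its most abundant one, and genes most like the family; Xist, Ddx3y and Mb were added after their values were seen. The sum of Apol9a and Apol9b and the count of shared 50-base windows (GENCODE M21 transcripts) were added after the data were seen. Protein sequences were not used here. Alternatives were other scalings and filters, DESeq2 1.42.0, limma 3.58.1 on log2-transformed FPKM after adding 1 or 0.1, blocking on the replicate number, and leaving out each library. Figures were drawn with matplotlib 3.10.9.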

Additional observations from a re-analysis of the deposited data

How the results depend on the processing

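The log2 fold change of the summed family stayed between 3.06 and 3.60 over all alternatives, and no named Apol fold changed direction except Apol7e, which was -0.02 without WT replicate 1. The counts of calls depended on WT replicates 2 and 3. With a library left out, the number of genes called higher ranged from 12 to 2750 and lower from 6 to 2440 (1035 and 751 without STAT6-/- replicate 1, 2750 and 2440 when STAT6-/- replicate 2 was left out, 656 and 751 without WT replicate 1, 21 and 10 without WT replicate 2), Apol members called higher from 0 to 5, pathway genes higher from 0 to 39 and lower from 0 to 1, neighbours higher from 0 to 6 and lower from 0 to 4, and other apolipoproteins higher from 0 to 2 and lower from 0 to 2; the cause was not tested. Stat6 ranged from -1.06 to -0.85, with an edgeR adjusted p of 0.0725 without WT replicate 2 (-0.94) and 0.0721 without WT replicate 3 (-1.06). DESeq2 called 2713 genes higher, 2 neighbours lower and 1 other apolipoprotein higher, and scaling by library size alone also called 1 of these higher. With limma on log2 FPKM, with 1 or 0.1 added, 0 pathway genes were called lower. The ISRE core, searched on the gene's strand alone, occurred in 0 of the 11 Apol genes with a window, since all matches are on the other strand.

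Same-numbered libraries had correlations of 0.032, 0.053 and 0.148 in their deviations from the group means, and STAT6-/- replicate 2 correlated best with WT replicate 1 (0.064), so the numbers are not shown to pair the samples. With the replicate block, 4 Apol members were called higher, the family's log2 fold change was 3.27, and 27 pathway genes were called higher and 0 lower, with 3 neighbours higher. The median log2 fold change of all tested genes was at most 0.07 under every alternative. Members with a few counts per library cannot be compared at this depth.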
